A study of Mus musculus with 4 samples.

Results

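The response described here is the change in gene expression between mice fasted for 24 hours and fed mice, in animals that had received no tetracycline. Its members are all 25522 gene rows of the authors' deposited table for that comparison, out of 27425 genes in the 2 tables of the series. The mice were 9-week-old C57BL/6J males, and the RNA came from their small intestinal crypts. The labels of both groups, fed (-Tetra) and fasted (-Tetra), give no genotype beyond the strain, and the groups differ by label in feeding only. Crypts were released by shaking in a calcium-chelating salt solution and then taken apart with trypsin, so any cell type that comes loose with the crypts is in the RNA. The other 2 groups of the series, fed and fasted after 21 days of tetracycline, enter only where the difference between the fasting changes was tested.

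A crypt is a pit in the intestinal wall that holds the stem cells of the epithelium at its base, next to Paneth cells that secrete antimicrobial peptides. Stem cell progeny divide in the crypt and mature into absorptive enterocytes or into goblet, enteroendocrine and tuft cells. During fasting, fatty acids released from fat tissue become a main fuel; they are ligands of the nuclear receptor PPARα, whose targets encode fatty acid oxidation enzymes. Glucocorticoids rise in the blood during food deprivation, while dietary ligands, bile flow and luminal nutrients decline.

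The labels list 1 sample in each group. The authors' deposited table gives for each gene a mean of normalised counts (counts divided by a size factor per library), a log2 change with its standard error and a DESeq2 adjusted p. No column states the direction of the change: the word order of the table's name, with fasted before fed, was taken to mean fasted over fed, and every direction below rests on that. The means are sums of whole counts times 1 fixed step per library, and the lowest means gave 4 such steps, 2 on each side. The table therefore holds 2 fasted and 2 fed libraries. These cannot be tied to the labelled samples, nothing says whether they came from separate mice, and the p-values may measure technical spread only. Whole counts were worked out for 15131 of 15132 genes sought. They are given below as normalised counts, single values per library, with library 1 the one of larger size factor on its side. They were sought for every gene with a mean up to 200 and, up to a mean of 10000, for genes that were listed or called; for most others only the 2 side means are known. Size factors ran from 0.930 to 1.09, and the means added up to 65863261 counts per average library.

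Fasting was accompanied by a change, at an adjusted p under 0.05, in 411 of the 18100 genes that carry an adjusted p, 191 of them higher (1.06% of the genes tested) and 220 lower (1.22%) in fasted crypts. The median log2 change over the tested genes was 0.0067, and 50.5% lay above 0. Of the called genes, 341 were protein-coding, 23 were long intergenic noncoding RNAs and 23 were immunoglobulin genes. All 23 of the latter were lower, out of 107 immunoglobulin genes with an adjusted p, beside 1.22% lower over all tested genes. Immunoglobulin segments of similar sequence can share reads, so their single values are uncertain. A change of at least 1 on the log2 scale was seen in 384 called genes. Among the 364 called genes with library values, both fasted libraries lay above both fed libraries for 158 and below them for 205. The remaining one, Gm12918, a processed pseudogene named here after its values were seen, read 0 and 0 fasted against 0 and 483 fed, so its call rests on 1 library. The same non-overlap was common among all 2261 genes with a mean of 50 to 200, where 28% lay above and 23.3% below.

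The smallest changes called were larger for genes of low mean. In the authors' deposited table the median standard error fell from 2.82 for means under 10 to 0.275 for means of at least 5000. The smallest absolute log2 change called was 6.62 in the first of these bins and 0.816 in the last. For means of 50 to 200, 4.33% of the tested genes were called, against 0.162% for means under 10. The share did not rise steadily with the mean, at 1.47% for means of 10 to 50, 1.54% for 1000 to 5000 and 3.24% for at least 5000. The smallest change called in a bin is an observed value and no limit of detection, and the first bin held 2 called genes of 1237 tested.

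**Figure D1:**
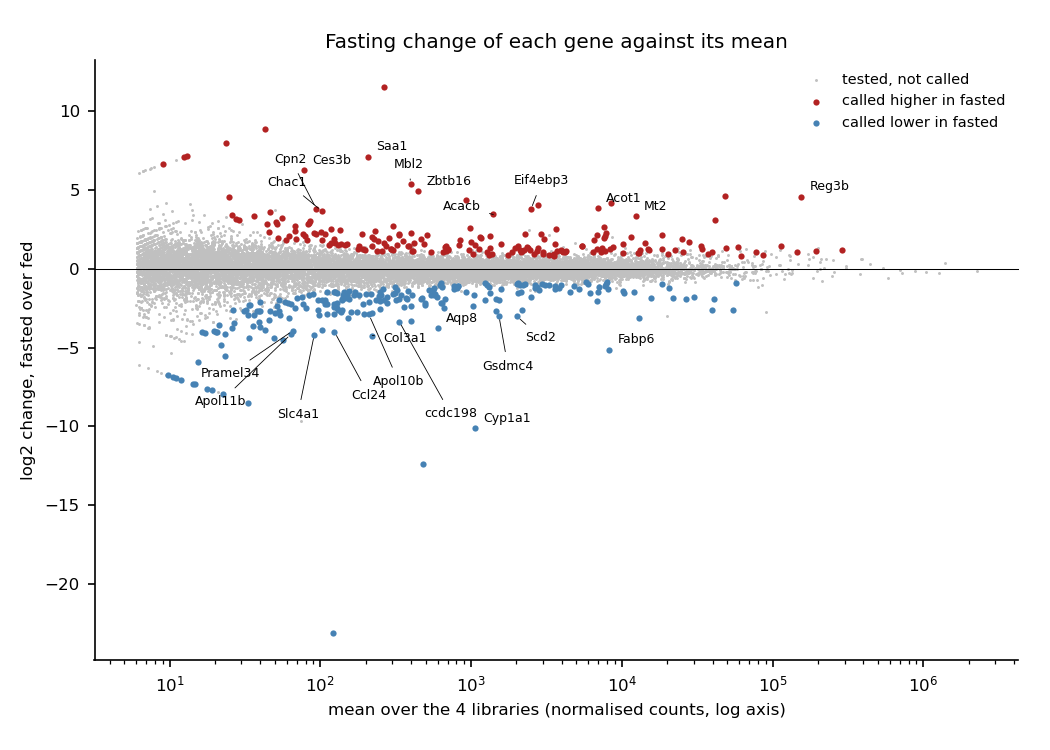
Each point is 1 of the 18100 tested genes, with its mean over the 4 libraries (normalised counts, log axis) against its log2 change, fasted over fed. Red points were called higher (191) and blue points lower (220); named are up to 12 genes on either side, those with the largest change at the 95% bound nearer to 0, from Cyp1a1 at -10.08 to Ces3b at 6.27 and Saa1 at 7.10.

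Several genes of mitochondrial fatty acid oxidation rose. Of 19 listed, 7 rose and none fell, 18 lay above 0, and the median log2 change was 0.80. Acot2, a mitochondrial acyl-CoA thioesterase, read 4431 and 7965 in the fasted libraries and 857 and 1318 in the fed libraries. Its fasted values were both above its fed values, and the authors' deposited table gives a rise of 2.51 ± 0.35 on the log2 scale, with the standard error after the sign (adjusted p = 1.02e-09). Acsl1, which activates long-chain fatty acids, read 9666 and 11511 fasted against 4845 and 5053 fed and rose by 1.10 ± 0.25 (adjusted p = 0.00159 in the authors' deposited table), again without overlap. Acadl, the long-chain acyl-CoA dehydrogenase, had side means of 18271 fasted against 8015 fed and rose by 1.19 ± 0.26 (adjusted p = 7.35e-04, from the authors' deposited table). The carnitine palmitoyltransferases that bring acyl groups into the mitochondrion did not pass the test: Cpt1a changed by 0.88 ± 0.28 (adjusted p = 0.0678 in the authors' deposited table) and Cpt2 by 0.15 ± 0.26 (adjusted p = 0.939). In peroxisomes, where very long chains are shortened, 2 of 14 listed genes rose and none fell, with a median of 0.54. Those 2 were Pex11a, which promotes peroxisome division, at 0.93 ± 0.26 (adjusted p = 0.0236 in the authors' deposited table), and the thiolase gene Acaa1b at 1.13 ± 0.34 (adjusted p = 0.0376). With 1 library left out in turn, the change of Acaa1b ran from 0.74 to 1.69. Over the 7 peroxisomal members with library values the median was 0.15 without fed library 1 and 0.54 without fed library 2.

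Known PPARα targets outside oxidation had the highest median of the pathway lists. Of 14 found (13 tested), 9 rose and none fell, and the median was 1.94; over members with library values it was 1.72 without fed library 1 and 2.67 without fed library 2. Acot1, a cytosolic acyl-CoA thioesterase, read 8555 and 17339 in the fasted libraries and 744 and 1076 in the fed libraries. Pdk4, the kinase that shuts off pyruvate dehydrogenase, read 12575 and 13634 fasted against 1593 and 3825 fed. Angptl4, an inhibitor of lipoprotein lipase, read 12573 and 9851 fasted against 1622 and 3402 fed. None of the 3 genes overlapped between the sides, and they rose by 3.83 ± 0.37, 2.27 ± 0.38 and 2.16 ± 0.36 (adjusted p = 2.10e-22, 7.82e-07 and 7.82e-07 in the authors' deposited table). When 1 library was left out the changes ran from 3.23 to 4.25 for Acot1, 1.78 to 3.04 for Pdk4 and 1.72 to 2.79 for Angptl4. Retsat, the retinol saturase, had side means of 39136 fasted against 10786 fed and rose by 1.86 ± 0.32 (adjusted p = 1.34e-06, from the authors' deposited table). The listed Cyp4a omega-hydroxylases are near-identical copies whose reads can be split between them by the counting, so their single values are uncertain. Over the 12 members with library values the summed normalised counts were 82889 and 87573 in the fasted libraries and 15898 and 25208 in the fed libraries.

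Lipid storage and synthesis genes moved singly. Of 14 lipid droplet and lipolysis genes 3 rose and none fell (median 0.31): Mgll, the monoglyceride lipase, read 1425 and 1935 fasted against 210.4 and 364 fed; G0s2, an inhibitor of adipose triglyceride lipase, read 345 and 755 fasted against 68.5 and 172 fed; and the droplet coat gene Plin5 read 76.1 and 126 fasted against 6.95 and 15.1 fed. All 3 were without overlap, with changes of 2.55 ± 0.35, 2.19 ± 0.49 and 3.20 ± 0.65 (adjusted p = 1.57e-10, 9.34e-04 and 1.53e-04, from the authors' deposited table). When 1 library was left out the change of G0s2 ran from 1.51 to 2.99. The lipases Pnpla2 and Lipe changed by 0.18 ± 0.28 and 0.36 ± 0.34 and passed no threshold in the authors' deposited table (adjusted p = 0.929 and 0.818). Fatty acid synthesis held changes in both directions (1 up and 2 down of 14 tested, median -0.05). Acacb, the mitochondrial acetyl-CoA carboxylase whose product malonyl-CoA inhibits fatty acid entry, read 2175 and 2972 in the fasted libraries and 226 and 249 in the fed libraries. It rose by 3.44 ± 0.29 (adjusted p = 2.99e-28, from the authors' deposited table). The stearoyl-CoA desaturase Scd2 read 430.2 and 457 fasted against 3939.8 and 3231 fed and fell by 3.01 ± 0.27 (adjusted p = 6.64e-26 in the authors' deposited table), and Scd1, its paralog, fell by 1.85 ± 0.39 (adjusted p = 3.33e-04). Fasn, the fatty acid synthase, changed by 0.04 ± 0.29 (adjusted p = 0.989 in the authors' deposited table).

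Cholesterol synthesis and uptake genes had 0 of 22 called, with a median of -0.29 and 18 of 22 below 0. Both fasted libraries were below both fed libraries for 13 of the 18 members with library values, which for single genes of mean 50 to 200 is the pattern of 23.3%. Hmgcs1, an early enzyme of the pathway, showed a change of -0.25 ± 0.27, from the authors' deposited table. Of 16 chylomicron genes 2 rose, the scaffold apolipoprotein gene Apob by 1.41 ± 0.42 (adjusted p = 0.037 in the authors' deposited table) and Fabp1, a fatty acid binding protein, by 1.08 ± 0.27 (adjusted p = 0.00656). Their side means were 165378 fasted against 62236 fed and 197363 fasted against 93371 fed. The list's median was 0.28, with 12 of 16 members above 0. Library values were known for 2 members, neither of them Apob or Fabp1. They summed to 15395 and 10665 in the fasted libraries and 9729 and 15771 in the fed libraries, overlapping between the sides.

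Fabp6, the ileal bile acid binding protein, came second to Cyp1a1 among the falls ranked by the 95% bound nearer to 0. It read 583 and 330.2 in the fasted libraries and 13402 and 18584 in the fed libraries, without overlap, and fell by 5.13 ± 0.34 (adjusted p = 1.46e-48 in the authors' deposited table). It was the only one of 9 tested bile acid genes called in either direction; the bile acid uptake transporter gene Slc10a2 read 2201 and 514 fasted against 4455 and 832 fed, overlapping between the sides, and changed by -0.96 ± 1.35 (adjusted p = 0.913 in the authors' deposited table). Fabp6 and Slc10a2 both mark the distal small intestine, and Fabp6 was also the only called gene of the 12 distal markers, whose median was -0.01; over those with library values it was -0.96 without fasted library 1. Summed over the 9 distal members with library values, the counts were 49357 and 21122 in the fasted libraries and 41452 and 50402 in the fed libraries and overlapped between the sides; the part of gut region in the fall of Fabp6 was not tested. Of 12 proximal markers 1 fell, Slc40a1, the iron exporter ferroportin, by 1.28 ± 0.34 (adjusted p = 0.0113 in the authors' deposited table), and the median was 0.12. Without fed library 2 the change of Slc40a1 was -0.73, and over proximal members with library values the median ran from -0.94 to -0.22 with 1 library left out.

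Ranked by that bound, the largest fall among protein-coding genes with a mean of at least 50 was in Cyp1a1, a monooxygenase gene switched on by the aryl hydrocarbon receptor, which binds plant compounds and microbial indoles. Cyp1a1 read 3.67 and 0 in the fasted libraries and 1657 and 2612 in the fed libraries, that is 4 reads in all on the fasted side. It fell by 10.08 ± 0.80 (adjusted p = 7.20e-33, from the authors' deposited table). With 1 added to each value, the change was -11.06 without fasted library 1 and -8.84 without fasted library 2. The receptor genes Ahr and Arnt changed by -0.29 ± 0.28 and 0.19 ± 0.26 (adjusted p = 0.829 and 0.91 in the authors' deposited table). Nqo1, a quinone reductase counted in both the receptor's and the NRF2 list, was the other called member: it read 1601 and 1728 fasted against 3230.3 and 4312 fed, without overlap, and fell by 1.18 ± 0.27 (adjusted p = 0.00188, from the authors' deposited table). The receptor list had 0 up and 2 down of 8 tested and a median of -0.52.

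Many glutathione and NRF2 genes were lower in fasted crypts. NRF2 is the factor that induces detoxification enzymes under oxidative or electrophilic stress. Of 17 listed, 7 fell and none rose, 16 lay below 0 and the median was -0.63. Over the 8 members with library values the median was -0.78 without fasted library 1 and -0.31 without fed library 2. The 4 called members with the strongest test were glutathione S-transferases: Gstm3 with side means of 17100.1 fasted against 64483 fed, Gstm1 with 9353 fasted against 34258 fed, Gsta1 with 13277 fasted against 46712 fed, and Gsta3, which read 281 and 277 fasted against 729 and 1402 fed without overlap. All 4 fell, with changes of -1.91 ± 0.31, -1.87 ± 0.32, -1.81 ± 0.38 and -1.93 ± 0.36 (adjusted p = 1.78e-07, 2.25e-06, 2.84e-04 and 2.41e-05 in the authors' deposited table). Gclc, which makes the first step of glutathione synthesis, changed by -0.26 ± 0.25 (adjusted p = 0.829, from the authors' deposited table). These transferases are families of similar sequence, so reads may be shared between copies.

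Other xenobiotic enzymes split. Ces3b, a carboxylesterase, read 239 and 68.8 in the fasted libraries and 0.992 and 3.01 in the fed libraries, with no overlap, and rose by 6.27 ± 0.96 (adjusted p = 3.29e-08 in the authors' deposited table); when 1 library was left out its change ran from 4.54 to 6.32. The sulfotransferase gene Sult1a1 read 211 and 566 fasted against 76.4 and 72.3 fed and rose by 2.38 ± 0.48 (adjusted p = 1.12e-04, from the authors' deposited table), or by 1.49 to 2.91 with 1 library left out. They were the only 2 of 21 tested conjugation and carboxylesterase genes called, and the list's median was -0.10. In cytochrome P450 families 2, 3 and 4, 1 of 16 rose and 2 fell: Cyp4b1 by 1.57 ± 0.40, Cyp2c55 by -2.08 ± 0.42 and Cyp4f16 by -0.96 ± 0.25 (adjusted p = 0.00777, 1.78e-04 and 0.00871 in the authors' deposited table). Cyp2c55 read 3916 and 1360.4 fasted against 9423 and 12817 fed; its change was -3.03 without fasted library 1 and -1.51 without fasted library 2.

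**Figure D2:**
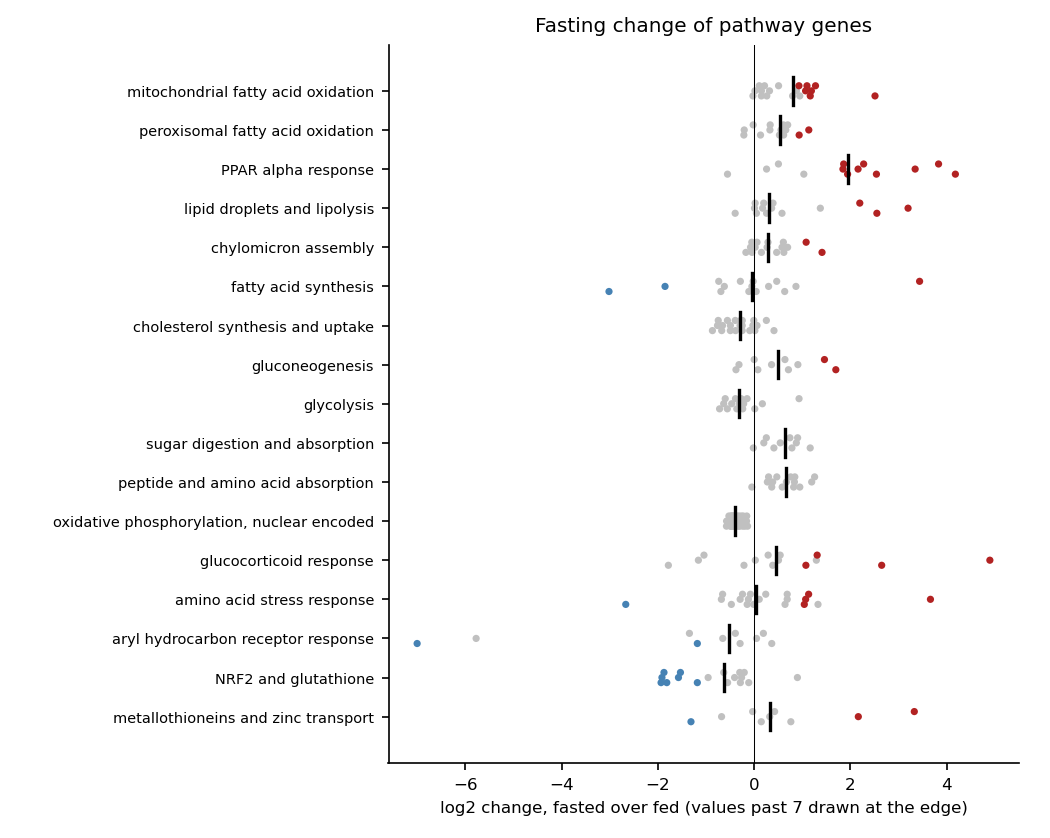
Each point is a listed gene with a mean of at least 1, placed by its log2 change (fasted over fed) in its pathway's line; red was called higher, blue lower, grey not called, and the black bar is the list's median, with values past 7 drawn at the edge. The PPARα list has the highest median (1.94) and the NRF2 list the lowest (-0.63), and all 34 nuclear genes of oxidative phosphorylation lie below 0.

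The glucocorticoid list had 4 of 14 members higher and none lower, with a median of 0.45. Zbtb16, a transcription factor gene induced by glucocorticoid receptor in many tissues, read 579 and 1147 in the fasted libraries and 23.8 and 34.2 in the fed libraries. Fkbp5, a cochaperone of that receptor, read 10559 and 15556 fasted against 2449 and 1714 fed. Per1, a clock gene with glucocorticoid response elements, read 2829.9 and 2734 fasted against 1102 and 1144 fed, and Ddit4, an inhibitor of mTORC1, read 3749 and 4359.8 fasted against 1716 and 2134 fed. No fasted value of these 4 genes was as low as a fed value. Their changes were 4.90 ± 0.43, 2.65 ± 0.31, 1.31 ± 0.25 and 1.07 ± 0.27 (adjusted p = 2.70e-26, 2.03e-14, 4.82e-05 and 0.00532, from the authors' deposited table); when 1 library was left out that of Zbtb16 ran from 4.27 to 5.26. The receptor gene Nr3c1 itself changed by 0.02 ± 0.26 and Tsc22d3, another known target, by 0.54 ± 0.32 (adjusted p = 0.993 and 0.59 in the authors' deposited table). Per1 was the only one of 20 clock genes called, and the core clock genes Arntl and Clock showed changes of -0.19 ± 0.26 and 0.24 ± 0.26, from the authors' deposited table.

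In insulin and FoxO signalling, 1 of 16 genes was called: Insr, the insulin receptor, read 6391 and 4532 fasted against 2532 and 2266 fed, without overlap, and rose by 1.19 ± 0.28 (adjusted p = 0.00265 in the authors' deposited table). Igf1r, the related growth factor receptor, read 1172 and 1651 fasted against 895 and 492 fed and changed by 1.02 ± 0.36 (adjusted p = 0.115 in the authors' deposited table). Eif4ebp3, a member of the family of translation inhibitors that mTORC1 switches off, was among the 12 genes with the largest rises: it read 5272 and 4011 fasted against 316 and 372 fed and rose by 3.76 ± 0.28 (adjusted p = 2.46e-36 in the authors' deposited table). Gluconeogenesis had 2 of 10 called, both higher: Pck1, which commits oxaloacetate to glucose synthesis, by 1.70 ± 0.41 and G6pc, which releases free glucose, by 1.46 ± 0.41 (adjusted p = 0.00289 and 0.0206 in the authors' deposited table). G6pc read 11268 and 4589.9 fasted against 2212 and 3550.4 fed, so fasted library 1 carries much of the rise; without that library the change was 0.67. Glycolysis had 0 of 15 called and a median of -0.31. Absorption genes had no calls either, with medians of 0.64 over 10 sugar genes and 0.67 over 15 peptide and amino acid genes; Slc5a1, the sodium-glucose transporter, changed by 0.90 ± 0.38 (adjusted p = 0.29 in the authors' deposited table) and Slc15a1, the peptide transporter, by 0.67 ± 0.44 (adjusted p = 0.662). Library values were known for 1 of the sugar genes, at 16871 and 6137 in the fasted libraries and 4379 and 8156 in the fed libraries, and for 3 of the peptide and amino acid genes, which summed to 31076 and 12599.7 in the fasted libraries and 14395 and 15434 in the fed libraries; in both fasted library 1 was the highest and fasted library 2 lay below a fed library.

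Metallothioneins, small proteins that bind zinc and copper, rose. Mt1 had side means of 30053 fasted against 6707 fed and Mt2 of 22542 fasted against 2247 fed, changes of 2.16 ± 0.31 and 3.33 ± 0.32 (adjusted p = 2.69e-09 and 2.68e-22 in the authors' deposited table). Slc39a4, the intestinal zinc importer, moved the other way: it read 6389.9 and 2851 fasted against 9602 and 13343 fed, without overlap, and fell by 1.31 ± 0.38 (adjusted p = 0.0285, from the authors' deposited table), with a change of -2.01 without fasted library 1 and -0.84 without fasted library 2. The list of 9 had 2 up, 1 down and a median of 0.32. Library values were known for 6 members, without Mt1 and Mt2. Over these the median was -0.035 without fasted library 1 and 0.46 without fasted library 2. The Mt1 promoter is shown because a metal response element, the site of the zinc-sensing factor MTF1, is known in metallothionein promoters; from RefSeq, build GRCm38.p6, it spans chr8:94178839-94179138 on the plus strand, from 250 bases before the annotated start to 50 after it. Capitals mark matches to TGCGCNC or TGCACNC, searched on both strands.
Mt1: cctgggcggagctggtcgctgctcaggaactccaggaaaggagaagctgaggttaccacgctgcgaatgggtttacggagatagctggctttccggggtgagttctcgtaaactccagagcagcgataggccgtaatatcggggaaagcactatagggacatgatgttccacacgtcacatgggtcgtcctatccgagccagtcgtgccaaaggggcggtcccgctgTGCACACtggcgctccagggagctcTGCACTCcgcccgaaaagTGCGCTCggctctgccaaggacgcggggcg
One of these letter strings, in either form and on either strand, was present in 25.7% of all 32851 promoter windows in that RefSeq table and in 7 of the 7 windows found for the list. A match is a description of letters, not a measured site.

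The amino acid stress list had 4 of 20 genes higher and 1 lower, with a median of 0.05. Chac1, which degrades glutathione and is a known target of the factor ATF4, read 242 and 137 in the fasted libraries and 14.9 and 15.1 in the fed libraries. Atf5, a related factor, read 1866 and 1592 fasted against 836 and 844 fed, and Nupr1, a stress-induced chromatin protein, read 665 and 804 fasted against 353 and 347 fed. None of these overlapped, and they rose by 3.66 ± 0.53, 1.04 ± 0.27 and 1.07 ± 0.29 (adjusted p = 4.13e-09, 0.00725 and 0.0165 in the authors' deposited table). Atf3, a factor that both amino acid stress and acute stimulation induce, went the other way: it read 579 and 213 in the fasted libraries and 1751 and 3282 in the fed libraries and fell by 2.67 ± 0.45 (adjusted p = 9.64e-07 in the authors' deposited table); its change ran from -3.56 to -2.12 with 1 library left out. Atf4 itself changed by -0.01 ± 0.25 (adjusted p = 0.995, from the authors' deposited table). The promoters of the 2 genes that moved most, in opposite directions, are shown with the letters TGATGNAA, the core of the composite element that ATF4 binds with a C/EBP partner, in capitals; both are from RefSeq, build GRCm38.p6. The Chac1 window is chr2:119350992-119351291 on the plus strand and the Atf3 window chr1:191183284-191183583 on the minus strand, each printed along its gene.
Chac1: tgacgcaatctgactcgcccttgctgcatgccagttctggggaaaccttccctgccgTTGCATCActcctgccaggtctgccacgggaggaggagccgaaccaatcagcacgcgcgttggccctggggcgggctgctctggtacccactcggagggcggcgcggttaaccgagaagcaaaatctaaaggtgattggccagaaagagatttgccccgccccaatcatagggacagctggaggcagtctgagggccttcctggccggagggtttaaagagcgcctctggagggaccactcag
Atf3: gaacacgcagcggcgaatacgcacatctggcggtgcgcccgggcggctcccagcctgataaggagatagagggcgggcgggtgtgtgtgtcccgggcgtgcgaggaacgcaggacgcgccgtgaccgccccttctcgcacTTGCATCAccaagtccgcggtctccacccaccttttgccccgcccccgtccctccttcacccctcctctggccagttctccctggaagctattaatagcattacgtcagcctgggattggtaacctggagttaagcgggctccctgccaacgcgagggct
Each window holds 1 match, on the strand opposite to the gene, so that its complement is printed. It begins 193 bases before the start in Chac1 and 110 before in Atf3. The letters were found in 3.97% of all promoter windows, both strands searched, and in 6 of the 18 found for the list.

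Chaperone, autophagy and translation genes gave no calls. There were 0 calls among 20 endoplasmic reticulum chaperones (median 0.06), 14 heat shock chaperones (-0.35) and 20 autophagy and lysosome genes (0.08). The 75 cytosolic ribosomal protein genes had 0 calls and a median of 0.15, with 70 above 0. The 34 nuclear-encoded oxidative phosphorylation genes had 0 calls and a median of -0.40, with 34 below 0, and the 13 mitochondrially encoded genes a median of -0.19. Members of such lists vary together within a library, so a shared sign over 2 libraries a side is no count of independent genes. Iron genes had 1 of 11 called, Slc40a1, given above, and in vitamin A handling Bco1, which cleaves beta-carotene, read 91.7 and 65.6 fasted against 339 and 349.6 fed and fell by 2.13 ± 0.37 (adjusted p = 2.28e-06 in the authors' deposited table). That list had 1 up, Retsat, given above, and 1 down of 11 tested, with a median of -0.16; over members with library values it ran from -0.94 to 0.02 when 1 library was left out.

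Some genes of cell division fell, and the rest of their list lay below 0. Of 28 mitosis and G2 genes 4 fell, none rose, 28 lay below 0 and the median was -0.78. Over members with library values it was -1.08 to -0.5 with 1 library left out, nearest to 0 without fed library 1. Aurka, a spindle pole kinase, read 777 and 1069 in the fasted libraries and 2669.6 and 1808 in the fed libraries. Birc5, a subunit of the chromosomal passenger complex, read 1195 and 1513 fasted against 3007 and 2410.2 fed. Ube2c, the ubiquitin-conjugating enzyme of the anaphase-promoting complex, read 2126 and 3155 fasted against 5942 and 4668 fed. None overlapped, and fed library 1 was the highest of the 4 libraries for each. The falls were changes of -1.28 ± 0.32, -1.0 ± 0.28 and -1.01 ± 0.30 (adjusted p = 0.00445, 0.0213 and 0.0385 in the authors' deposited table). Plk1, the polo-like kinase, read 1244 and 1684 fasted against 3566 and 2390.1 fed and fell by 1.02 ± 0.31 (adjusted p = 0.0461 in the authors' deposited table), but was at an adjusted p of 0.0536 once changes were centred on the median gene. Mki67 and Top2a, the usual proliferation markers, did not pass the test: Mki67 read 6281 and 7931 fasted against 12113 and 6128 fed, overlapping, with a change of -0.36 ± 0.35 (adjusted p = 0.83 in the authors' deposited table), or 0.21 without fed library 1. Summed over the 28 genes the normalised counts were 45080.5 and 62002 in the fasted libraries and 109066 and 68851 in the fed libraries. For DNA replication and S phase 1 of 30 genes fell, Cdc45, a part of the replicative helicase, by 1.05 ± 0.31 (adjusted p = 0.032 in the authors' deposited table), 28 lay below 0 and the median was -0.41. With 1 library left out that median ran from -0.58 without fasted library 2 to -0.22 without fed library 1. In bulk RNA, fewer cells of a type and less RNA per cell cannot be told apart, here and for every lineage below.

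The promoters of Plk1 (chr7:122159185-122159484 on the plus strand) and Ube2c (chr2:164769679-164769978 on the plus strand), from RefSeq, build GRCm38.p6, are shown because genes of this list are known to share a cell cycle homology region near the start. Capitals mark TTTGAA, searched on both strands.
Plk1: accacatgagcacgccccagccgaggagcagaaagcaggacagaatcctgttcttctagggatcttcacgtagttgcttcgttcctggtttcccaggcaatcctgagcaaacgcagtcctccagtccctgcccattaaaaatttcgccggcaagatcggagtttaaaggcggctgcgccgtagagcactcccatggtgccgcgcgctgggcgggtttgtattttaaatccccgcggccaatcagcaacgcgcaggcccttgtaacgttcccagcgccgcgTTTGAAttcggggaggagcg
Ube2c: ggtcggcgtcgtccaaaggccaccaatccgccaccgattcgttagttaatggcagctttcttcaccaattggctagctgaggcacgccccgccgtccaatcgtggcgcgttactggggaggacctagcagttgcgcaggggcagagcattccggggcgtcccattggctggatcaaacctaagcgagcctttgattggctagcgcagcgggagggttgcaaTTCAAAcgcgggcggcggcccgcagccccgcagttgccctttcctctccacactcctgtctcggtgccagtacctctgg
The match begins 30 bases after the start in Plk1, and 29 before it, on the opposite strand, in Ube2c. These letters were found in 17.9% of all promoter windows and in 17 of the 23 found for the list.

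Most stem cell markers lay above 0, but their summed counts did not rise. Of 22 crypt base stem cell genes 1 was called, 19 lay above 0, and the median was 0.23. The log2 ratio of summed side means was -0.092. Members with library values summed to 42966 and 54243 in the fasted libraries and 49942 and 33796 in the fed libraries, overlapping. Over these members the median was 0.49 without fed library 1 and 0.036 without fed library 2. Lgr5, the R-spondin receptor that marks the stem cells, read 1003 and 1168 in the fasted libraries and 665 and 375 in the fed libraries. Its fasted values were both higher than its fed values, but the change of 1.06 ± 0.34 missed the threshold (adjusted p = 0.0711 in the authors' deposited table). That change was 1.53 without fed library 1 and 0.71 without fed library 2. Ascl2, a stem cell transcription factor, changed by 0.56 ± 0.32 (adjusted p = 0.556, from the authors' deposited table). The called member was the urea transporter gene Slc14a1, which fell by 1.40 ± 0.39 (adjusted p = 0.0181 in the authors' deposited table); its change was -0.82 without fed library 1. Among 20 tested Wnt and Notch genes, Nkd1, a feedback inhibitor of Wnt signalling, read 169.7 and 187 fasted against 52.6 and 64.3 fed and rose by 1.61 ± 0.42 (adjusted p = 0.00859, from the authors' deposited table) as the only call. Wnt3, a ligand made by Paneth cells, read 350.4 and 376 fasted against 194 and 195 fed, without overlap, at 0.90 ± 0.32 (adjusted p = 0.13 in the authors' deposited table).

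Many Paneth cell genes rose. Of 20 listed, 10 rose, none fell, 19 lay above 0, and the median was 0.98. Mmp7, the protease that activates defensins in the mouse, read 11508 and 13541 in the fasted libraries and 3226 and 2727 in the fed libraries. Both fasted values were over 3 times either fed value, a rise of 2.07 ± 0.26 (adjusted p = 1.72e-12 in the authors' deposited table). Pnliprp2, a lipase, read 7839 and 7989 fasted against 3172 and 2693 fed, and Pla2g2a, a phospholipase that kills bacteria, read 1094 and 1342 fasted against 509 and 368 fed. Neither overlapped, with rises of 1.43 ± 0.25 and 1.47 ± 0.31 (adjusted p = 4.19e-06 and 2.36e-04 in the authors' deposited table). Ang4, an antimicrobial ribonuclease, had side means of 21103 fasted against 8684 fed and rose by 1.28 ± 0.25 (adjusted p = 6.25e-05 in the authors' deposited table). Lyz1, the Paneth cell lysozyme, had 211001 fasted against 138085 fed and did not pass (0.61 ± 0.25, adjusted p = 0.265 in the authors' deposited table). Of the 10 called genes with the highest means, 4 were defensins or the lectin gene Itln1: Defa24 at 1.15 ± 0.28, Defa30 at 1.39 ± 0.34, Itln1 at 1.05 ± 0.27 and Defa43 at 0.86 ± 0.26 in the authors' deposited table. Defensins are near-identical copies, so these single values are uncertain, and the adjusted p of Defa43 was 0.063 with summed side means set equal. The 8 members with library values added up to 37726 and 44013 in the fasted libraries and 17935 and 19519 in the fed libraries.

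Tuft cells, chemosensory cells that release IL-25, had 0 of 22 genes called, yet 21 lay above 0 and the median was 0.59. Dclk1, their usual marker, read 2718 and 2382 in the fasted libraries and 1494 and 1424 in the fed libraries, without overlap (0.81 ± 0.26, adjusted p = 0.0673 in the authors' deposited table). Pou2f3, their lineage factor, read 402 and 369.9 fasted against 277 and 271 fed (0.49 ± 0.31, adjusted p = 0.625 in the authors' deposited table). Both fasted libraries were above both fed ones for 16 of 21 members with library values, beside 28% of genes of mean 50 to 200. Goblet cell genes had 1 of 20 lower, Agr2, a disulfide isomerase needed for mucin folding, by 1.20 ± 0.27 (adjusted p = 0.00121 in the authors' deposited table), and a median of -0.13; Muc2, the main mucin, changed by 0.38 ± 0.30. Enteroendocrine genes had 1 of 24 lower and a median of -0.06. That gene was Cck, the hormone cholecystokinin released by dietary fat and protein, which read 1309.9 and 1497 fasted against 2212 and 3463 fed and fell by 1.02 ± 0.31 (adjusted p = 0.042 in the authors' deposited table); its change was -0.66 without fed library 2. Enterocyte brush border genes had 0 of 21 called and a median of 0.15, and 14 epithelial identity genes had 0 called and a median of 0.03, with Epcam at 82423 fasted against 84982 fed.

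**Figure D3:**
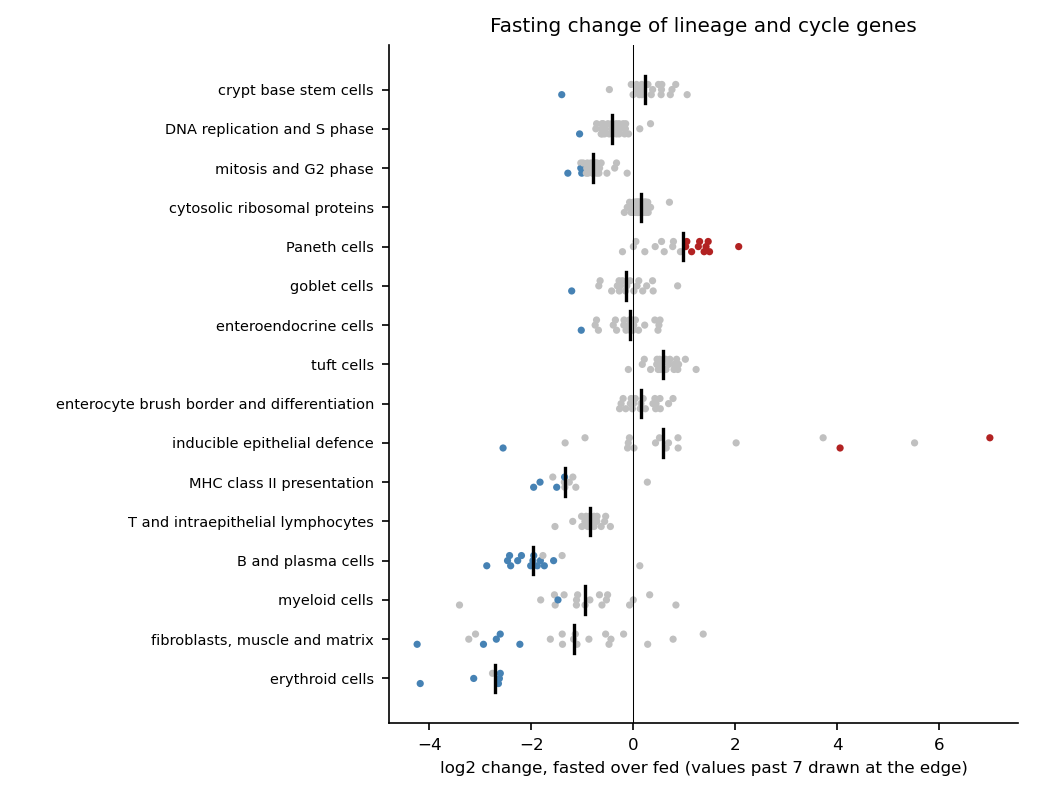
Each point is a listed gene with a mean of at least 1, placed by its log2 change (fasted over fed) in the line of its lineage or process; red was called higher, blue lower, grey not called, and the black bar is the list's median, with values past 7 drawn at the edge. Paneth and tuft cell genes sit above 0 at medians of 0.98 and 0.59, while the mitosis, lymphocyte, myeloid, matrix and erythroid lists sit below 0.

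Several antimicrobial and acute phase genes rose. Reg3b, a lectin that binds Gram-negative bacteria, had side means of 298003 fasted against 12602 fed and rose by 4.56 ± 0.91, and Reg3g, its paralog active on Gram-positive bacteria, had 74603 fasted against 8916 fed and rose by 3.06 ± 0.92 (adjusted p = 1.12e-04 and 0.0393 in the authors' deposited table). Library values are not known for Reg3b and Reg3g, so the spread between their fasted libraries cannot be shown. Their standard errors stand beside a median of 0.275 for genes with means of at least 5000. Reg3a fell by 1.42 ± 0.39 (adjusted p = 0.0167 in the authors' deposited table), so of 6 tested Reg genes 2 rose and 1 fell. Nos2, the inducible nitric oxide synthase, read 9071 and 1415 in the fasted libraries and 236 and 392 in the fed libraries. Saa1, serum amyloid A, read 788 and 33.3 fasted against 4.96 and 1.005 fed. Mbl2, a mannose-binding lectin, read 1326 and 225 fasted against 16.9 and 21.1 fed, and Clu, clusterin, which is counted among regenerative markers, read 2864 and 681 fasted against 69.5 and 107 fed. The fasted values of all 4 exceeded the fed values, but fasted library 1 was higher than fasted library 2 by a wide margin. Their changes were 4.06 ± 1.19, 7.10 ± 1.98, 5.35 ± 1.15 and 4.32 ± 0.98 (adjusted p = 0.0336, 0.0192, 5.01e-04 and 0.00128 in the authors' deposited table). Without fasted library 1 the values were 2.17 for Nos2, 3.11 for Saa1, 3.50 for Mbl2 and 2.93 for Clu. Socs3, the feedback inhibitor that STAT3 induces, read 2502 and 1166 fasted against 394 and 526 fed and rose by 2.0 ± 0.38 (adjusted p = 3.96e-05 in the authors' deposited table), or by 1.34 without that library. Sprr1a, a cornified envelope gene, went down in both libraries: it read 95.4 and 48.4 fasted against 444 and 402 fed and fell by 2.55 ± 0.40 (adjusted p = 1.26e-07 in the authors' deposited table).

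Counting the genes named above, the defence list had 2 up and 1 down of 16 tested and a median of 0.58, and the STAT3 and acute phase list 2 up of 13 and a median of 0.56. Over members with library values these medians were -0.45 and 0.03 without fasted library 1, so the first turned. Fasted library 1 also had the highest sums of brush border genes, with 42195 over the 4 members with library values against 13087 in fasted library 2, 16895 in fed library 1 and 29676 in fed library 2. Whether this has a part in the differences above was not tested. Regenerative or fetal-like epithelial genes other than Clu had 0 of the other 14 tested called, and the list's median was -0.65; Ly6a, the Sca-1 surface antigen, read 44.03 and 97.9 fasted against 119 and 339.6 fed and changed by -1.70 ± 0.56 (adjusted p = 0.0859 in the authors' deposited table), or by -2.35 to -0.74 when 1 library was left out. The median of the regenerative list, over members with library values, was -0.91 without fed library 1 and -0.16 without fed library 2. Interferon-stimulated genes had 0 of 25 called and a median of -0.14. Over members with library values it was -0.85 without fasted library 1 and 0.22 without fasted library 2.

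**Figure D4:**
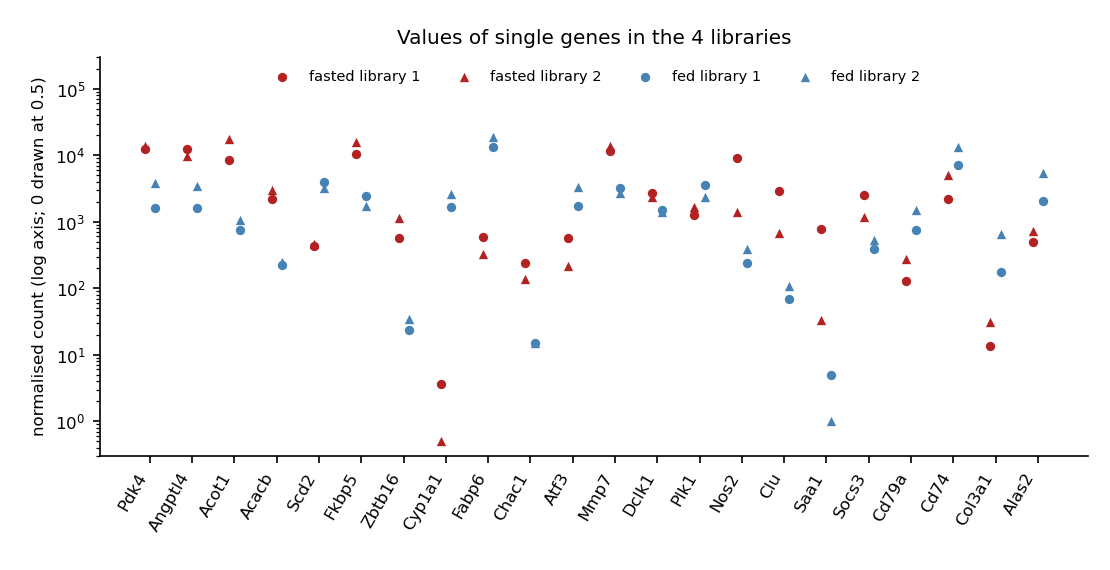
Normalised counts (log axis, a 0 drawn at 0.5) of 22 genes in the 2 fasted (red) and 2 fed (blue) libraries; circles are library 1 and triangles library 2 of a side. Acacb, Scd2 and Fkbp5 show 2 sides well apart with close libraries within a side, while Nos2, Clu and Saa1 have a wide gap between the 2 fasted libraries.

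Many genes of blood and connective tissue cells fell. Of 16 tested B and plasma cell genes 13 fell and none rose, with a median of -1.96. Cd79a, a subunit of the B cell receptor, read 129 and 276 in the fasted libraries and 741 and 1491 in the fed libraries. Ms4a1, the CD20 antigen, read 88.1 and 142 fasted against 434 and 779 fed, and Fcer2a, the low-affinity IgE receptor, read 33.9 and 60.2 fasted against 235 and 450.1 fed. In each the order of the libraries was the same: fasted 1, fasted 2, fed 1 and fed 2 from low to high. All 3 fell, with changes of -2.46 ± 0.43, -2.40 ± 0.40 and -2.87 ± 0.47 (adjusted p = 4.21e-06, 9.53e-07 and 3.08e-07 in the authors' deposited table). When 1 library was left out the change of Cd79a ran from -3.10 to -1.86. Of MHC class II genes, which present antigen on B cells, myeloid cells and part of the epithelium, 4 of 11 fell (median -1.34). Cd74, the invariant chain, read 2199.7 and 5067 fasted against 7089.7 and 13432 fed, and H2-Ob read 89.9 and 155 fasted against 314 and 552 fed, with changes of -1.5 ± 0.42 and -1.82 ± 0.42 (adjusted p = 0.0187 and 0.00155 in the authors' deposited table); when 1 library was left out that of Cd74 ran from -2.22 to -0.96, nearest to 0 without fed library 2. H2-Aa, an alpha chain, read 815 and 1961 fasted against 2428 and 4586 fed and changed by -1.34 ± 0.43 (adjusted p = 0.0661 in the authors' deposited table). Beside them the B and plasma cell markers, at a sum of 2867 and 7445 fasted against 12076 and 22267 fed, moved in the same direction and library order, and their part in the class II result was not tested.

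T and intraepithelial lymphocyte genes had 0 of 19 called, 19 below 0 and a median of -0.84; Ptprc, the pan-leukocyte antigen, changed by -0.44 ± 0.32 and Cd3d by -1.0 ± 0.40 (adjusted p = 0.703 and 0.237 in the authors' deposited table). Of 17 tested myeloid genes 1 fell, Lyz2, the myeloid lysozyme, by 1.47 ± 0.42 (adjusted p = 0.025 in the authors' deposited table), and the median was -0.94. Fibroblast, muscle and matrix genes had 5 of 21 lower and a median of -1.17. Col3a1, a fibrillar collagen chain, read 13.8 and 31.2 in the fasted libraries and 177 and 664 in the fed libraries. It fell by 4.24 ± 0.60 (adjusted p = 1.58e-09 in the authors' deposited table), and its change was -2.92 without fed library 2, the highest. Col1a1 and Col1a2 fell as well, at -2.61 ± 0.64 and -2.93 ± 0.69 (adjusted p = 0.00439 and 0.00229 in the authors' deposited table). Col1a1 read 18.3 and 36.6 fasted against 72.4 and 260.2 fed and Col1a2 10.1 and 35.5 fasted against 76.4 and 269 fed, and without fed library 2 the changes were -1.37 and -1.70. Of 6 erythroid genes 5 fell (median -2.70): Alas2, which starts haem synthesis in red cells, read 488 and 735 fasted against 2048 and 5383 fed and fell by 2.60 ± 0.42 (adjusted p = 2.83e-07 in the authors' deposited table), and the anion exchanger gene Slc4a1 read 6.42 and 12.9 fasted against 75.4 and 270.3 fed, a change of -4.17 ± 0.70 (adjusted p = 7.82e-07). Without fed library 2 the changes were -0.83 for Lyz2, -1.74 for Alas2 and -2.84 for Slc4a1.

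All of these lists shared the library order, with fed library 2 at the top. The sum of T and intraepithelial genes was 19325 and 36849.6 in the fasted libraries and 40804 and 53481 in the fed libraries, and that of myeloid genes 2835 and 4389 in the fasted libraries and 5357 and 8665 in the fed libraries. When 1 library was left out, the median change over members with library values ran from -1.97 to -0.70 for class II, -2.69 to -1.41 for B and plasma cells, -1.39 to -0.41 for T and intraepithelial lymphocytes and -2.04 to -0.35 for matrix genes. For myeloid genes it ran from -1.37 to -0.55. Each was farthest from 0 without fasted library 2; the T and intraepithelial median was nearest to 0 without fasted library 1 and the others without fed library 2. The labelled cell type is small intestinal epithelium, whose identity genes were abundant, yet blood, immune and matrix genes were present on both sides and their amount varied by library within a side. Endothelial and glial genes had 0 of 10 tested called and a median of 0.05. Gkn2, a gastric surface gene, read 0 and 239 fasted against 26.8 and 260.2 fed, and the gastric list summed to 701 and 2228 in the fasted libraries and 1391 and 1604 in the fed libraries. Neither the gastric list nor the pancreatic acinar list had a call, with medians of -0.01 and -1.56. Over members with library values the gastric median was -3.0 without fasted library 2, and the acinar median turned to 0.91 without fed library 2; the acinar log2 ratio of summed side means was also above 0, at 0.42.

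**Figure D5:**
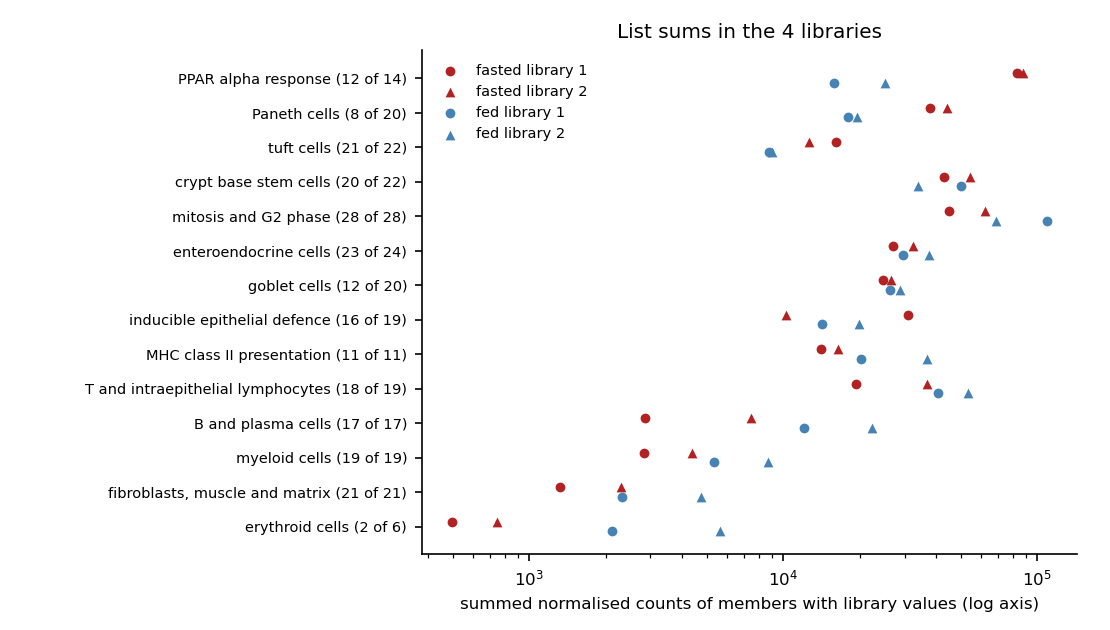
Summed normalised counts (log axis) of each list's members with library values, in the 2 fasted (red) and 2 fed (blue) libraries; circles are library 1 and triangles library 2, and the line names give how many members are summed. PPARα, Paneth and tuft cell sums are higher in both fasted libraries, B and plasma, T, myeloid and erythroid sums are lower, and stem cell sums overlap.

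Immediate early genes had 2 of 18 lower, Atf3, given above, and Fosb, which read 172 and 82.8 fasted against 289.8 and 723 fed, without overlap, and fell by 1.99 ± 0.49 (adjusted p = 0.00416, from the authors' deposited table), with a change of -2.60 to -1.18 with 1 library left out. The list's median was -0.52. Over members with library values it was -0.90 without fed library 1 and -0.16 without fed library 2. Fos read 5587 and 2066 fasted against 2937 and 7707 fed and overlapped. No gene was called among 15 tight junction genes (median 0.01), 26 tested genes of histone acetylation and short-chain fatty acid use (0.01) or 13 p53 targets (-0.02).

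Among the remaining genes with the largest falls, Aqp8, a water channel gene of the epithelium, read 57.8 and 108 in the fasted libraries and 618 and 1612 in the fed libraries. The chemokine gene Ccl24 read 20.2 and 8.60 fasted against 262 and 206 fed. The gasdermin gene Gsdmc4 read 416 and 271 fasted against 2989 and 2444 fed, and the apolipoprotein L genes Apol11b and Apol10b read 9.17 and 4.30 fasted against 72.4 and 169.8 fed and 61.5 and 37.6 fasted against 291 and 450.1 fed. Each of these 5 was lower in both fasted libraries than in either fed library. In the order named, the changes were -3.76 ± 0.47, -4.0 ± 0.51, -2.98 ± 0.31, -4.15 ± 0.71 and -2.90 ± 0.42 (adjusted p = 8.49e-13, 6.45e-12, 1.15e-18, 1.44e-06 and 4.62e-09 in the authors' deposited table). When 1 library was left out that of Aqp8 ran from -4.27 to -2.89, that of Ccl24 from -4.61 to -3.47 and that of Apol11b from -4.53 to -3.25. On the other side Cpn2, the regulatory subunit of carboxypeptidase N, read 237 and 114 fasted against 14.9 and 10.05 fed and rose by 3.82 ± 0.58 (adjusted p = 3.20e-08, from the authors' deposited table), or by 3.09 without fasted library 1.

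The same comparison in mice given tetracycline used other libraries, so it can be set beside these values. Of the 403 called genes that were tested in both tables, 386 had the same sign with tetracycline. The share with the same sign over all tested genes was not computed. The difference between the 2 changes was tested per gene by a Wald test over 17571 genes, with Benjamini-Hochberg adjustment. In this test 4 genes passed, 2 of them among the 403, and 43 of the 403 were at an unadjusted p under 0.05, beside 185 of all 17571. The 403 were picked by their change without tetracycline, which enters the difference, so their share cannot be compared with that of all genes. With the statistic divided by its robust SD of 0.714, 32 genes passed, 18 of them among the 403. In the authors' deposited tables Cyp1a1 changed by -10.08 ± 0.80 without tetracycline and by -9.54 ± 1.12 with it. Chac1 changed by 3.66 ± 0.53 without and -1.13 ± 1.04 with tetracycline, a difference of 4.79 ± 1.17 that did not pass over all genes with the unscaled statistic (adjusted p = 0.103). Socs3 changed by 2.0 ± 0.38 and -0.36 ± 0.50, a difference of 2.36 ± 0.63 (adjusted p = 0.269), and Fabp6 by -5.13 ± 0.34 and -2.21 ± 0.75, a difference of -2.92 ± 0.82 (adjusted p = 0.566). With the scaled statistic of the Wald test all 3 differences passed (adjusted p = 2.30e-05 for Chac1, 2.19e-04 for Socs3 and 9.77e-04 for Fabp6), so whether they pass depends on that scaling.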

How the data were processed

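Per the submitters' processing notes, Salmon, DESeq2 and mm10 were used; versions are not given in the sources used here. The kit does not keep strand, per the labels' protocols, so overlapping and antisense genes cannot be told apart. Per the file headers, the deposited mean is a signal (counts over a size factor, averaged over libraries), the authors' change and standard error are log2 values, the authors' statistic is a score (change over error), and the authors' p-values come with a Benjamini-Hochberg adjusted column. The tables were scaled separately, and 0 per-sample columns were left unused.

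From these, whole counts per library were solved (relative tolerance 5e-15) and checked by refitting a negative binomial, whose log2 change differed from the deposited one by a median of 1.14e-06. Both this and the difference test were tested on simulated data. The simulated counts used exactly known steps, and the simulated differences had the spread given by the deposited standard errors. The simulation therefore does not cover the scaling by the robust SD of 0.714. No test was run on the solved counts, and no SD is given for 2 libraries. Python 3.11.15, numpy 2.4.6, pandas 2.3.3 and scipy 1.17.1 were used. Gene types and missing symbols came from GENCODE mouse release M21. Calls are the authors' adjusted p under 0.05. The 59 gene lists are described by counts and by the median change over members with a mean of at least 1; beside them the median over all tested genes is 0.0067. The members and lists were chosen with earlier results of these data known. The named genes are the 12 highest and 12 lowest protein-coding called genes with a mean of at least 50 by the 95% bound nearer to 0, the 10 called genes with the highest means, and per list the 4 called members with the largest statistic and the first 2 members; some of these genes and 1 further list are not reported here. The difference between the tables was a two-sided Wald test over 17571 genes. Alternatives were other thresholds, filters, scalings, pseudocount 1, weights and leaving out each library.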

Additional observations from a re-analysis of the deposited data

Results flagged for a closer look

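For 4 genes the fasting change differed between mice without and with tetracycline by the test of the difference itself, and all 4 are predicted, pseudogene or retrogene entries whose reads can be shared with related copies. Without minus with tetracycline, the log2 change differed by -8.773 for Yy2, -12.49 for Mid1-ps1, -3.931 for Gm14308 and 9.527 for Gm49749 (Wald test with Benjamini-Hochberg adjustment over 17571 genes, adjusted p = 0.00376, 0.00376, 0.00842 and 0.0318). Mid1-ps1 read 0 and 0 fasted against 25.8 and 50.2 fed, and Gm49749 read 93.6 and 77.4 fasted against 0 and 0 fed, so without tetracycline each was at 0 in both libraries of 1 side and the fitted size of its change is no bound. Gm14308 and Yy2 were not called without tetracycline, with changes of -0.70 ± 0.62 for Gm14308 and -0.11 ± 0.49 for Yy2. No reason for these differences was tested.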

How the results depend on the processing

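At an adjusted p under 0.01 the count of called genes fell to 246, 119 higher and 127 lower, and 24 other recounts stayed within 1.5 times the main count, among them a recount of called genes without overlap between libraries, chosen after seeing the data. Of the list medians, 397 recomputed values stayed within the members' error and 16 moved. As the log2 ratio of summed side means these were -0.53 for bile acid genes, 0.94 for glucocorticoid, -0.0028 for heat shock, -1.13 for NRF2, 0.82 for metallothionein and zinc, -0.092 for stem cell, 1.86 for Reg, -0.91 for class II, 0.42 for acinar and 0.53 for proximal genes. Weighted by 1/SE squared they were -0.57 for bile acid, 0.83 for glucocorticoid, 0.64 for metallothionein and zinc, 0.12 for acinar and -0.38 for distal genes, and acinar genes with a mean of at least 50 gave 0.093. The cause was not tested. Leaving out each library moved 23 of 200 list medians, and 149 of 564 values of named genes by more than their standard error, without turning a called gene's direction. Equal summed side means took Serinc3 to an adjusted p of 0.0511. After dividing the difference statistic by its robust SD of 0.714, 32 genes were called in place of 4. The calls are the authors' and were not recomputed without each library. No paired analysis was possible because the labels list 1 sample per group and carry no replicate numbers. Genes with means under 50 were called only at large changes, and every direction rests on the word order of a table's name.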

Other observations

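Some called genes outside every list were picked out after their values had been seen. The mast cell protease genes Mcpt1 and Mcpt2 were lower in fasted crypts: Mcpt1 read 559 and 684 fasted against 3100.3 and 1793 fed and Mcpt2 read 212 and 246 fasted against 1334 and 750.5 fed, changes of -1.98 ± 0.33 and -2.19 ± 0.35 (adjusted p = 9.42e-07 and 2.83e-07 in the authors' deposited table). Here fed library 1 was above fed library 2, the reverse of the order in the B cell and matrix lists. A second gasdermin C gene, Gsdmc2, fell beside Gsdmc4 by 2.19 ± 0.32, and 2 further apolipoprotein L genes fell, with changes of -1.94 ± 0.40 for Apol9b and -3.30 ± 0.52 for Apol10c-ps (authors' deposited table). Trpv6, the calcium channel of calcium uptake, read 126 and 129 fasted against 275 and 1065 fed, where fed library 2 stood far above the rest. Among rises, the fatty acid transport gene Slc27a1 read 1759 and 2585 fasted against 528 and 504 fed and the peptide transporter gene Slc15a2 read 433 and 617 fasted against 69.5 and 91.4 fed, both without overlap, with changes of 2.07 ± 0.30 and 2.71 ± 0.36 in the authors' deposited table. Alpk1 and Tifa, the sensor and adaptor for a bacterial sugar metabolite, read 839 and 253 fasted against 143 and 103 fed for Alpk1 and 5807 and 1693 fasted against 962 and 666 fed for Tifa, again with fasted library 1 highest.

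A pair of noncoding entries had the largest fitted changes at a mean of at least 200: Gm42429 read 0 and 0 fasted against 169.7 and 1749 fed, and Gm27149 read 972 and 92.5 fasted against 0 and 0 fed. Both were at 0 in 1 side, and their 2 other libraries differed from each other by more than 10-fold for each of the 2 genes.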
